A study of Mus musculus with 24 samples.

Results

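The change of gene expression from the DN2 to the DN3 stage was described in thymocytes of IgHμ-TLX1Tg Prkdc Scid/Scid mice (TLX1). The members are 8 of the 24 arrays of the series, chosen by title, namely the DN3 and the DN2 array of each of 4 TLX1 pools. Each pool held sorted cells of 2 to 5 mice of 1 sex and gave both arrays, so that stages were compared within pools. The mice were labelled as 6 to 8 weeks old, although the study's own description of its cohorts includes younger mice in pools 1 and 2. Pools 1 and 4 were female and pools 2 and 3 were male. The mice carry TLX1 (HOX11), a homeobox gene of human T cell leukemia, as a transgene under the IgHμ promoter, a promoter of the B lineage with leaky activity in thymocytes, and the Scid mutation of both Prkdc alleles, on a background labelled outbred ICR, which in the TLX1 mice came from a cross with transgenic mice of CD1 stock. The 4 pools of Prkdc Scid/Scid mice without the transgene (control), likewise 2 female and 2 male and with the same age and strain labels, share that mutation and serve here only for the comparison of the stage change. The thymocytes, given in the labels as negative for B220 and CD3, were sorted with antibodies to CD4, CD8, CD44 and CD25, DN3 being by definition CD44 negative and CD25 positive and DN2 CD44 positive and CD25 positive, and fewer cells of a type and less RNA per cell cannot be told apart in such bulk RNA.

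As background, a DN2 thymocyte is a proliferating progenitor that still holds transcription factors of its multipotent past, and Notch signalling in the thymus directs it to the T lineage. At DN3 the cell switches on the pre-TCR α chain and the Rag recombinase, opens and joins its T cell receptor β locus, and slows its division until a functional β chain is made. Without the DNA-PK catalytic subunit, which Prkdc encodes, broken V(D)J ends are not joined properly, and thymocytes of such mice are held at DN3.

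Values are MAS5 signals, a linear hybridization intensity scaled by the authors to a 2% trimmed mean of 150 on each array. Lower signals were raised to 1 before log2 was taken, and every change is a log2 difference, DN3 over DN2, averaged over the 4 pools. Of the 45037 probe sets that are no controls of the array, 13461 were kept because their mean signal was 100 or more at DN3 or at DN2 (12512 at both stages, 686 only at DN3 and 263 only at DN2). The kept probe set nearest to this limit had a mean of 100.002 in its higher stage, and the nearest one left out had 99.99. Between pools of a stage, arrays correlated at 0.917 to 0.979 at DN3 and at 0.909 to 0.984 at DN2. The median signal was higher at DN3 than at DN2 in 4 of 4 pools (18.8 ± 0.49 at DN3 and 16.2 ± 0.95 at DN2, SD, n = 4; exact sign-flip test, two-sided p = 0.125, the smallest that 4 pairs allow). The 3'/5' index of RNA quality, by how much the 3' control probe sets of Actb and Gapdh exceeded the 5' ones on the log2 scale, was 0.184 ± 0.106 at DN3 and 0.216 ± 0.107 at DN2 (SD, n = 4), lower at DN3 in 4 of 4 pools (exact p = 0.125).

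The sorted populations carried the markers of their labels. Cd44 encodes the adhesion receptor of the gate, and its probe set had signals of 9.52, 17.2, 11.2 and 29.03 in pools 1 to 4 at DN3, against 104, 114, 85.3 and 119 at DN2. Il2ra, which encodes CD25, had signals of 4507, 5226, 4428 and 4323 in pools 1 to 4 at DN3, against 4688, 5187, 4993 and 4269.6 at DN2. Both genes chose the cells, so their levels only describe the sort, with Cd44 apart between the stages and Il2ra overlapping. Ptcra, the gene of the pre-TCR α chain, was not used in the gate and had signals of 2122, 2399.9, 1764 and 1826 in pools 1 to 4 at DN3, against 798, 859, 753 and 442 at DN2. All DN3 arrays lay above all DN2 arrays for Ptcra. Its log2 change was 1.54 (standard error 0.13, adjusted p = 0.00745), from limma with the pool as a block, as for every adjusted p below. Whether the probe set of mouse Tlx1 reads the transgene is not known, and it was not kept, with signals of 4.51, 8.09, 7.201 and 9.98 at DN3, against 10.8, 10.9, 6.18 and 6.303 at DN2. Prkdc, whose Scid allele is a point mutation that a signal does not check, had signals of 408, 351, 352 and 354 at DN3, against 388, 385, 413 and 353 at DN2.

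In TLX1 pools, 1032 kept probe sets (7.67%) were higher and 1111 (8.25%) were lower at DN3 than at DN2 at an adjusted p under 0.05, and each of them changed in the same direction in all 4 pools. Among all 45037 probe sets 5.74% were called in either direction. Taken by gene, with the brightest probe set that matches a single gene, 540 of 7820 kept genes were higher (6.91%) and 736 were lower (9.41%). These shares are the measure for the counts of gene lists below. Among the called probe sets, 87 rose and 64 fell by 2-fold or more, and 3 rose and 23 fell by 4-fold or more. Such sizes are less certain where the signal of 1 stage was low, as for several of the genes below. The 8 arrays separated fully by stage, with all values of one stage above all values of the other, for 2173 of the 13461 kept probe sets (16.1%), among them 536 of the calls that were higher and 751 of those that were lower. The counts rest on all 4 pools. They were 2 and 11 (higher and lower) without pool 1, 2 and 7 without pool 2, and 0 and 0 without pool 3 or pool 4, and the unadjusted p was under 0.05 for 6121 kept probe sets with all pools. Without an intensity trend in the prior spread, or after a covariate for the 3'/5' index was added, they were 0 and 0, and in a fit over the kept probe sets alone they were 2209 and 2236. The index was lower at DN3 in every pool, so the fit with this covariate cannot separate it from stage. The balance of directions also rests on the scale of the arrays, since calls that were higher made up 48.2% of the calls as deposited, 46.1% after quantile normalization and 9.46% after each array was centred on its median (440 higher and 4209 lower). Centring moved the median log2 change of the kept probe sets to -0.20, against 0.010 as deposited.

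**Figure D1:**
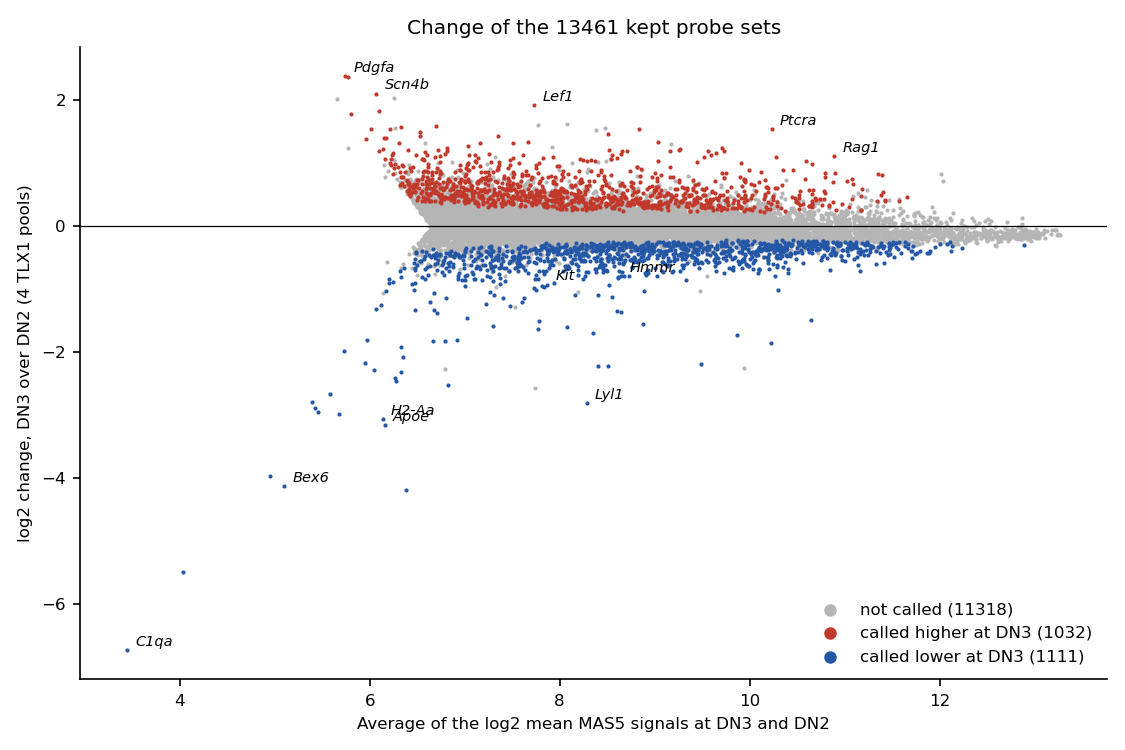
Log2 change, DN3 over DN2, of each of the 13461 kept probe sets in 4 TLX1 pools (vertical) against the average of its log2 mean MAS5 signals at DN3 and DN2 (horizontal). Red points are the 1032 probe sets called higher at DN3, blue points are the 1111 called lower and grey points were not called. Past a 4-fold change there are 3 red and 23 blue points.

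The genes with the greatest rise at DN3 included those of a growth factor and channel subunits, besides Gm266, Lef1, Tubb2b and Ptcra. Pdgfa, a platelet-derived growth factor chain, had signals of 102, 95.7, 190.0 and 101 in pools 1 to 4 at DN3, against 22.1, 29.1, 29.02 and 13.6 at DN2. Its DN3 and DN2 values did not overlap, and its log2 change was 2.38 (standard error 0.21, adjusted p = 0.00802). Scn4b and Scn2b encode β subunits of voltage-gated sodium channels. Scn4b had signals of 174, 139, 118 and 119 at DN3, against 36.4, 42.4, 29.5 and 22.4 at DN2, a log2 change of 2.10 (standard error 0.14, adjusted p = 0.00474). For Scn2b the signals were 132, 115, 112 and 147 at DN3, against 41.4, 41.1, 51.8 and 39.97 at DN2, a log2 change of 1.54 (standard error 0.14, adjusted p = 0.00836). Neither overlapped between stages, and their mean signals at DN1 in the same pools were 13.7 and 26.8. With an offset of 32 added to each signal before log2, the changes of Pdgfa, Scn4b and Scn2b were smaller, at 1.45, 1.39 and 1.07.

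Lef1, a transcription factor that works with β-catenin and shares its sites with Tcf7, had signals of 385, 635, 290.1 and 339 in pools 1 to 4 at DN3, against 96.1, 134, 141 and 66.1 at DN2. Its log2 change was 1.91 (standard error 0.21, adjusted p = 0.0110), and pool 2 was highest at DN3. The teneurin Tenm1 had mean signals of 594 at DN3 and 223 at DN2, a log2 change of 1.45 (standard error 0.14, adjusted p = 0.00943), and the zinc finger gene Tshz2 had 149 at DN3 and 57.2 at DN2, a log2 change of 1.43 (standard error 0.13, adjusted p = 0.00837). The Tshz2 rise belongs to its brightest probe set, since the median change over all of its probe sets, of which 1 was kept, was -0.095. Rxfp1, a relaxin receptor, changed by 1.39 (adjusted p = 0.0102), Cd200, an immunoglobulin-family ligand, by 1.38 (adjusted p = 0.0139), the tubulin Tubb2b by 1.78 (adjusted p = 0.0154) and the noncoding RNA Airn by 1.34 (adjusted p = 0.0121). Of these, Tubb2b overlapped between the stages.

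Gm266, a predicted gene, had pools of very different level. Its signals were 4.43, 52.00, 637 and 8.87 in pools 1 to 4 at DN3, against 2.19, 6.31, 57.4 and 2.31 at DN2. The rise was present in each pool, but pools 1 and 4 stayed under 10 at both stages and pool 3 alone passed 100 (log2 change 2.37 (standard error 0.46, adjusted p = 0.0403)).

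**Figure D2:**
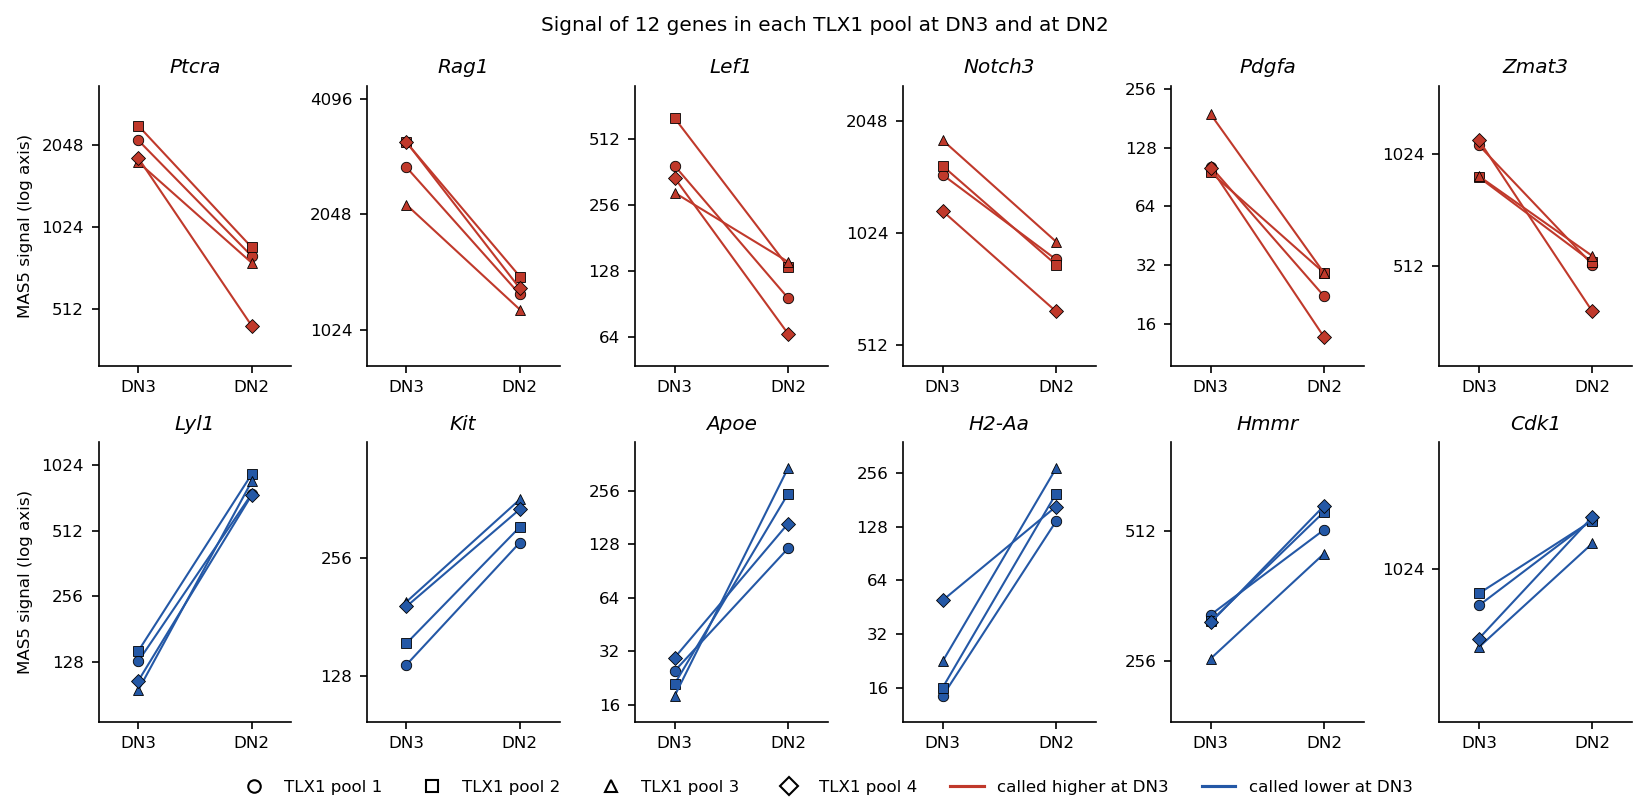
MAS5 signal (log axis) of 12 genes in each of 4 TLX1 pools, with DN3 on the left and DN2 on the right of each panel and a line for each pool. Ptcra, Rag1, Lef1, Notch3, Pdgfa and Zmat3 (red) were called higher at DN3, and Lyl1, Kit, Apoe, H2-Aa, Hmmr and Cdk1 (blue) were called lower.

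The pre-TCR and recombination genes moved unevenly. Rag1, one of the recombinase pair, had signals of 2718, 3154, 2170.4 and 3161 in pools 1 to 4 at DN3, against 1268, 1412, 1158 and 1314 at DN2. Every DN3 array was above every DN2 array, and the log2 change was 1.11 (standard error 0.069, adjusted p = 0.00405). Its partner Rag2 had signals of 549, 520.5, 484 and 582 at DN3, against 413, 363, 394 and 530.2 at DN2, with a log2 change of 0.34 (standard error 0.073, adjusted p = 0.0517) that did not pass the threshold. Of the 16 kept genes of V(D)J recombination and end joining, 3 were higher and 2 were lower, against 6.91% and 9.41% of all kept genes. Besides Rag1, Xrcc6, the Ku70 end-binding protein, rose by 0.48 (adjusted p = 0.0115), and Lig4, the ligase of end joining, by 0.42 (adjusted p = 0.0155). Nbn and Mre11a, of the complex that senses DNA breaks, fell by a log2 change of -0.40 (adjusted p = 0.0160) and -0.30 (adjusted p = 0.0442). For Mre11a the median over all probe sets, of which 1 was kept, was 0.033. The median log2 change of the 16 genes was -0.023, against -0.0095 over all 7820 kept genes.

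Of the 25 kept genes of the pre-TCR, CD3 and proximal signalling, 4 were higher and 1 was lower (median log2 change 0.18), against 6.91% and 9.41% of all kept genes. Cd247, the CD3 ζ chain, had signals of 1002, 949.6, 951 and 1092 at DN3, against 693, 749, 693 and 698 at DN2, a log2 change of 0.49 (standard error 0.062, adjusted p = 0.0138) with no overlap. Zap70, the kinase that binds it, changed by 0.59 (adjusted p = 0.0348), and Themis, an adaptor of T cell selection, by 0.34 (adjusted p = 0.0421). Cd5, a receptor that dampens T cell receptor signals, was the member that fell, with signals of 77.9, 89.2, 68.9 and 65.1 at DN3, against 149, 182, 181 and 151 at DN2 and a log2 change of -1.14 (standard error 0.099, adjusted p = 0.00779). Its DN2 arrays were all above its DN3 arrays.

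Sequences before the start sites of Ptcra and Rag1, the components of the pre-TCR and of the recombinase that rose, are shown for their E boxes, the letters that E proteins are known to bind. The windows are the 200 bases before the start listed by RefSeq (GRCm38.p6), 5′ to 3′ on the gene's strand, Ptcra at chr17:46763713-46763912, minus strand, and Rag1 at chr2:101649533-101649732, minus strand. Capitals mark the E boxes CAGCTG and CAGGTG (the second also as CACCTG), on either strand.
Ptcra: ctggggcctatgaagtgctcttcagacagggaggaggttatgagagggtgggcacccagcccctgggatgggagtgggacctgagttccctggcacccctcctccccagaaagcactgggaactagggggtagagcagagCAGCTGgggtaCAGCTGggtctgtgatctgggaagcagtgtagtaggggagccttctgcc
Rag1: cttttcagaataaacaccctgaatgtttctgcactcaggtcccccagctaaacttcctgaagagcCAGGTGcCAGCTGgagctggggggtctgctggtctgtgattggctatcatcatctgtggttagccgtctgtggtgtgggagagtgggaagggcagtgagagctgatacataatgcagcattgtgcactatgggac
Ptcra holds a pair of CAGCTG copies 60 and 49 bases before the start, and Rag1 holds CAGGTG at 135 and CAGCTG at 128. CAGCTG was found in 8.6% of the 430 windows of called-higher genes, 9.03% of 609 windows of called-lower genes and 8.17% of 6452 windows of kept genes, and 10.6% of all 27025 windows of the table. CAGGTG was found in 13.3% of the windows of called-higher genes, 10.9% of those of kept genes and 13.7% of all windows. The letters describe these windows and say nothing of binding in these cells.

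The Notch pathway had a receptor, targets and a degradation factor among its calls. Of 22 kept members, 6 were higher and 1 was lower, and the median log2 change was 0.14. Notch3, a receptor that is itself a Notch target, had signals of 1469.9, 1553, 1822 and 1173 in pools 1 to 4 at DN3, against 869, 841, 971 and 629.7 at DN2. The stages did not overlap, and the log2 change was 0.86 (standard error 0.050, adjusted p = 0.00375). Dtx1, a target that encodes a Deltex ubiquitin ligase, had signals of 2964, 2798, 3103 and 2057 at DN3, against 1831, 2031, 1962 and 1172 at DN2, a log2 change of 0.66 (standard error 0.068, adjusted p = 0.00986). Dtx3, of the same family, changed by 0.38 (adjusted p = 0.0311), and Fbxw7, the ubiquitin ligase subunit that marks the Notch intracellular domain for degradation, by 0.30 (adjusted p = 0.0389). The targets Hes1 and Nrarp, named after their values were seen, went apart, Hes1 with a log2 change of 0.42 (adjusted p = 0.0473) and Nrarp with -0.27 (adjusted p = 0.0478). Notch1, the main thymic receptor, had signals of 4322, 4182, 4009 and 4432 at DN3, against 3621, 3985, 3720.1 and 3255 at DN2. All of its DN3 arrays were above all of its DN2 arrays, but its log2 change of 0.22 (standard error 0.076, adjusted p = 0.161) did not pass the threshold.

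Among 23 kept factors of T lineage commitment, 7 were higher and 1 was lower (median log2 change 0.12). Ets2 had signals of 576, 699.7, 589 and 449.6 in pools 1 to 4 at DN3, against 300.5, 394, 342 and 231 at DN2. Its stages were apart, and its log2 change was 0.88 (standard error 0.055, adjusted p = 0.00405). The zinc finger repressor Gfi1 had signals of 1177, 1135, 1164 and 1342 at DN3, against 862, 856, 862 and 962 at DN2, a log2 change of 0.44 (standard error 0.045, adjusted p = 0.00973), and the chromatin organizer Satb1 changed by 0.50 (standard error 0.053, adjusted p = 0.0102). Ets1, a relative of Ets2, and the Notch target Hes1 were higher too, and Runx3, a Runx factor, was the member that fell, with a log2 change of -0.46 (adjusted p = 0.0225). These 3 were named after their values were seen. Spib, an Ets factor of lymphoid and dendritic progenitors, had signals of 407, 356, 325 and 315 at DN3, against 193, 196, 193 and 98.6 at DN2. It changed by 1.09 (standard error 0.15, adjusted p = 0.0175), and pool 4 was lowest at both stages. Bcl11b, which closes the commitment step, had signals of 3511, 3539, 3424 and 3888 at DN3, against 3260.4, 3140.2, 3445 and 2979 at DN2 and no call, with a log2 change of 0.16 (standard error 0.074, adjusted p = 0.262). Of its 4 kept probe sets, all with positive changes, 1 less bright one was higher, at 0.60 (adjusted p = 0.0188). After each array was centred on its median, the median change of the Notch list was -0.078, that of the commitment list -0.090 and that of the pre-TCR list -0.032, so the sign of these list medians depends on the scale. None of the 4 kept E proteins and Id inhibitors was called by its brightest probe set. Of these, Tcf12 (HEB) changed by 0.31 (adjusted p = 0.0869), with 2 of its 4 kept probe sets higher (0.44 and 0.67), and Id2 by 0.46 (adjusted p = 0.102).

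Several progenitor factors fell. Of 12 kept members, 6 were lower and none was higher, with a median log2 change of -0.45, and 3 further members below the signal limit also passed the test. The count was 0 to 2 when 1 pool was left out. Lyl1, a basic helix-loop-helix factor of blood stem cells and an oncogene in T cell leukemia, had signals of 129, 144, 95.1 and 105 in pools 1 to 4 at DN3, against 755, 929.9, 861 and 746 at DN2. The DN2 arrays were all over 5 times the DN3 arrays, and the log2 change was -2.81 (standard error 0.11, adjusted p = 0.00110). Hhex, a homeobox factor of early lymphoid cells, had signals of 162, 147, 123 and 188 in pools 1 to 4 at DN3, against 421, 454, 439 and 563 at DN2, without overlap, a log2 change of -1.61 (standard error 0.082, adjusted p = 0.00226). Nfe2, an erythroid and megakaryocyte factor, had signals of 989, 856, 827 and 763 at DN3, against 1434, 1533, 1440.3 and 1191 at DN2, a log2 change of -0.70 (standard error 0.066, adjusted p = 0.00851). Cebpb, a myeloid factor, changed by -1.24 (standard error 0.13, adjusted p = 0.00973), and Lmo4, a LIM-only adaptor, by -0.41 (standard error 0.074, adjusted p = 0.0322). At DN1 in the same pools their levels differed. Lyl1 had mean signals of 147 at DN1, 823 at DN2 and 118 at DN3, and Nfe2 of 228 at DN1, 1399.5 at DN2 and 859 at DN3, so that both were highest at DN2. Hhex had 461 at DN1, 469 at DN2 and 155 at DN3, and Cebpb had 506 at DN1, 228 at DN2 and 97.4 at DN3. Cldn2, a claudin of tight junctions and another of the greatest falls, had 22.9 at DN1, 271 at DN2 and 47.6 at DN3, a log2 change at DN3 over DN2 of -2.52 (standard error 0.081, adjusted p = 0.00110).

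Kit, the stem cell factor receptor of DN1 and DN2 progenitors, had signals of 136, 155, 198 and 192 in pools 1 to 4 at DN3, against 280.1, 307, 361 and 341 at DN2. No DN3 array reached a DN2 array, and the log2 change was -0.93 (standard error 0.063, adjusted p = 0.00499). Among 19 kept gate and progenitor surface molecules, 6 fell, of which Cd44 was a gate of the sort, and 1 rose (median log2 change -0.050). Cd93, a C-type lectin of early progenitors, changed by -0.55 (adjusted p = 0.0156). Ly6d, a surface marker of lymphoid specification, was the one that rose, with signals of 2827, 3566, 4056 and 3755 at DN3, against 1558, 2575, 2319 and 1744 at DN2, a log2 change of 0.81 (standard error 0.10, adjusted p = 0.0136). Of 17 kept genes of IL-7 and cytokine receptor signalling, 1 was higher and 1 was lower, near the 6.91% and 9.41% of all kept genes. Socs3, a feedback inhibitor, was the higher one (0.65 (adjusted p = 0.0241)) and Kit the lower one. Il7r had a log2 change of 0.29 (adjusted p = 0.0938), and 0.54 (adjusted p = 0.0493) in its other kept probe set. Of 10 kept homing receptors, 1 was higher and 2 were lower, against the same shares. Itga6 rose by 0.48 (adjusted p = 0.0257) and Itga4 fell, by a log2 change of -0.48 (adjusted p = 0.0191), besides Cd44, whose level the sort set.

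**Figure D3:**
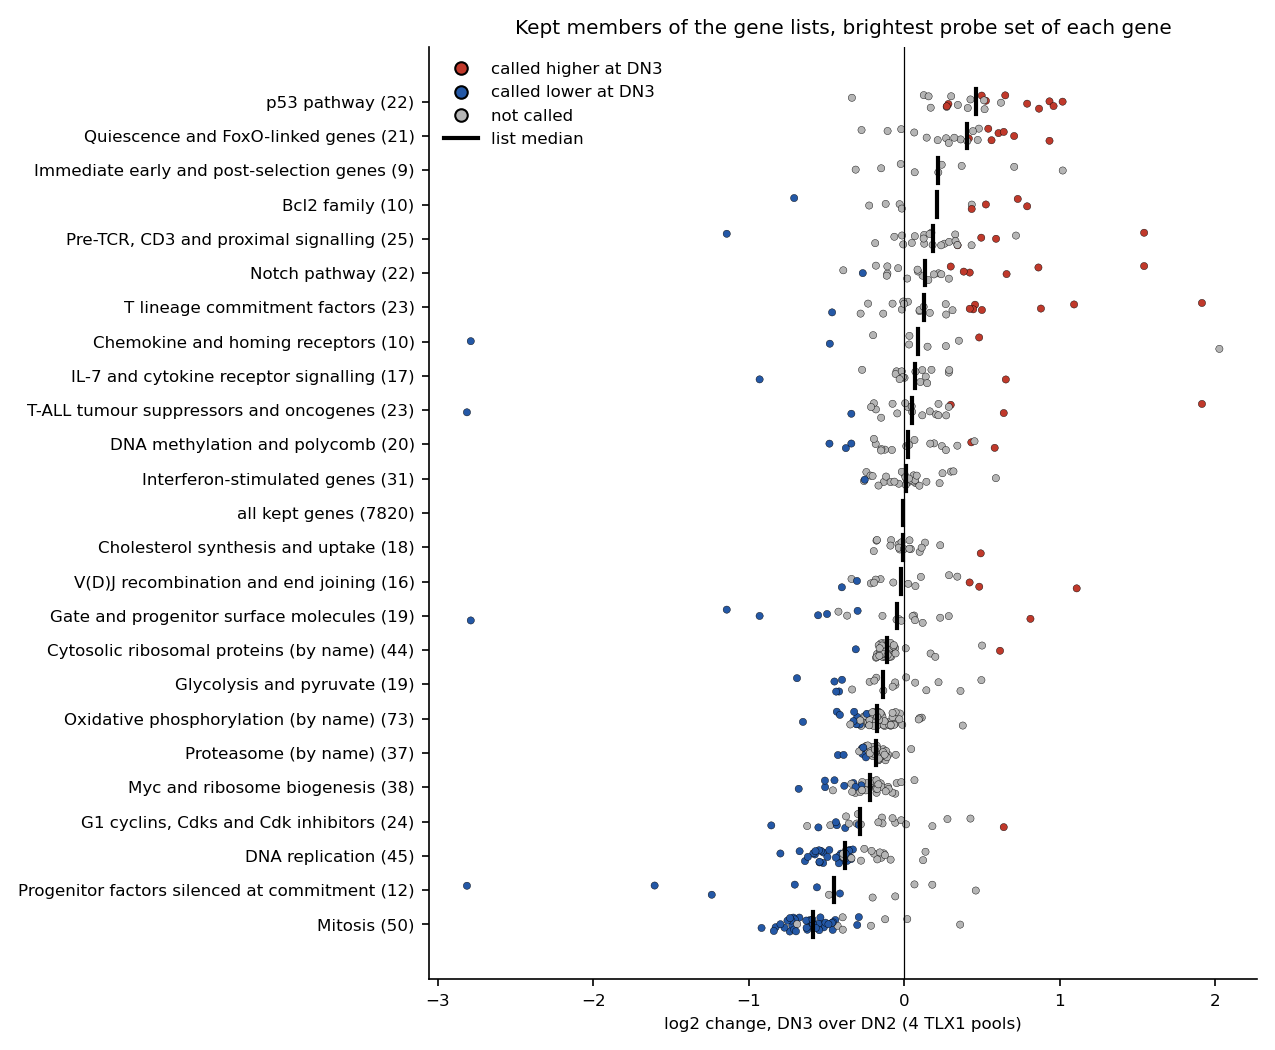
Log2 change, DN3 over DN2 in 4 TLX1 pools, of the kept members of each functional gene list with 9 or more of them (lists of cell type markers are not drawn), 1 point per gene, with the number of kept members in brackets and the list median as a black bar. Of the lists drawn, mitosis lies lowest with a median of -0.59 and the p53 pathway highest with 0.46. For all 7820 kept genes only the median of -0.0095 is drawn.

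The cell cycle lists had the largest shares of called members among the functional lists. Of 50 kept mitosis genes, 42 were lower and none was higher, and 45 were lower in each of the 4 pools, with a median log2 change of -0.59. Among all 7820 kept genes, 2236 were lower in each of the 4 pools and 1840 were higher in each. Of 45 kept DNA replication genes, 29 were lower and none was higher, with a median of -0.38. Both medians kept their sign under quantile normalization (-0.57 and -0.35) and with each array centred on its median (-0.80 and -0.60). With any 1 pool left out, no member of either list passed the threshold.

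Hmmr, a spindle-associated hyaluronan receptor, had signals of 328, 317, 260.0 and 315 in pools 1 to 4 at DN3, against 515, 567, 454 and 585 at DN2. Stages were apart, and the log2 change was -0.80 (standard error 0.059, adjusted p = 0.00579). Its other kept probe sets, at -0.53 (adjusted p = 0.177) and -0.38 (adjusted p = 0.126), were not called. Ube2c, the ubiquitin-conjugating enzyme of the anaphase-promoting complex, had signals of 1603, 1736, 1280.5 and 1192 at DN3, against 2355, 2736, 2155 and 2112 at DN2, a log2 change of -0.70 (standard error 0.060, adjusted p = 0.00762). Bub1b, a spindle checkpoint kinase, had signals of 359, 433, 344 and 393 at DN3, against 601, 623, 590.2 and 669 at DN2, a log2 change of -0.70 (standard error 0.062, adjusted p = 0.00789). Every DN2 array exceeded every DN3 array for both genes. Aurka, a kinase of the centrosome, changed by -0.71 (standard error 0.064, adjusted p = 0.00802), and Top2a, which untangles chromosomes, by -0.61 (standard error 0.056, adjusted p = 0.00853). In the replication list, Lig1, which joins Okazaki fragments, had signals of 1020.0, 1114, 888 and 1015 at DN3, against 1600.5, 1676, 1445 and 1474 at DN2, a log2 change of -0.62 (standard error 0.050, adjusted p = 0.00737). Gins2, of the replicative helicase, changed by -0.58 (standard error 0.050, adjusted p = 0.00752), Rfc5, of the clamp loader, by -0.55 (standard error 0.050, adjusted p = 0.00836), Fen1, the flap nuclease, by -0.80 (standard error 0.074, adjusted p = 0.00851) and Mcm10, an initiation factor, by -0.67 (standard error 0.068, adjusted p = 0.00963).

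Promoter windows of 4 mitosis genes that fell are shown for their short elements, the CCAAT box in all 4 and the CHR element in all but Hmmr. Hmmr lies at chr11:40733438-40733637, minus strand, Ube2c at chr2:164769729-164769928, plus strand, Ccnb2, which encodes cyclin B2, at chr9:70421555-70421754, minus strand, and Cdk1, its kinase partner, at chr10:69352913-69353112, minus strand (RefSeq, GRCm38.p6, 200 bases before the start). Capitals mark the CCAAT box, known to bind NF-Y (CCAAT or ATTGG), and the CHR element, known from cell cycle promoters (TTTGAA or TTCAAA).
Hmmr: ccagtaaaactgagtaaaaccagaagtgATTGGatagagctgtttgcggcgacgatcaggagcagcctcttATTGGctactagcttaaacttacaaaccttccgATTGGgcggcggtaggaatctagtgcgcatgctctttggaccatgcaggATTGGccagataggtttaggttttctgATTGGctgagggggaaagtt
Ube2c: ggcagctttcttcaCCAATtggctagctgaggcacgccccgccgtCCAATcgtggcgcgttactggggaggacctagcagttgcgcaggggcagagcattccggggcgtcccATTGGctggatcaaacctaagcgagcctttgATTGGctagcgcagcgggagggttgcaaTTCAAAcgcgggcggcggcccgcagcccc
Ccnb2: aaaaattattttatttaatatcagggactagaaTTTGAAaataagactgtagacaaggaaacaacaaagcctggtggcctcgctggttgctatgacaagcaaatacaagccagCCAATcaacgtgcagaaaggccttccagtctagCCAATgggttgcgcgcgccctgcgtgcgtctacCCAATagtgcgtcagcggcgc
Cdk1: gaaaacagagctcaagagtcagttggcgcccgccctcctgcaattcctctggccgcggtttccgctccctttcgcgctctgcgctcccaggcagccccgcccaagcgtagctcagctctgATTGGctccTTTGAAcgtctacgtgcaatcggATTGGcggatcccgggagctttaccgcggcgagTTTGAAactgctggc
Hmmr holds 5 CCAAT boxes and no CHR element in this window, and Ube2c holds 4 boxes (letters that read as a box on both strands were counted once) with a CHR element 29 bases before the start. Ccnb2 holds 3 boxes within 87 bases of the start and a CHR element at 167, and Cdk1 holds 2 boxes and 2 CHR elements. Of the 42 kept mitosis genes with a window, 32 held a CCAAT box (76.2%) and 15 a CHR element (35.7%). Among all 6452 kept genes with a window the shares were 33.6% and 7.75%, and over all 27025 windows they were 30.0% and 12.7%. Called-lower genes as a whole held a CCAAT box in 41.1% and a CHR element in 14.4% of 609 windows, and called-higher genes in 34.9% and 6.51% of 430. In the replication list, 20 of 38 windows held a CCAAT box (52.6%), and 7 (18.4%) held an E2F element (TTCCCGCC or TTTCCCGC, either strand), against 4.42% of kept genes and 2.08% of all windows. Lists with members that rose held a CCAAT box in similar shares, 9 of 18 windows (50.0%) of the p53 pathway, 10 of 20 (50.0%) of the quiescence genes and 8 of 17 (47.1%) of the Notch pathway. These counts are descriptions of 9 motifs searched, of which TTTGAA overlaps with the Tcf/Lef letters CTTTGA, and the windows and genes shown were chosen after the changes were known.

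Lists of growth and metabolism held fewer calls. Of 24 kept G1 cyclins, Cdks and Cdk inhibitors, 6 were lower and 1 was higher. Cdk4, the kinase partner of D cyclins, had signals of 1657, 1750.0, 1607 and 1580.3 at DN3, against 2130.3, 2528, 2131 and 2138 at DN2, a log2 change of -0.43 (standard error 0.051, adjusted p = 0.0120), and the pocket protein Rbl1 changed by -0.44 (adjusted p = 0.0130). The gene that rose was Cdkn1b, which encodes the inhibitor p27, with signals of 529, 519, 537 and 456 in pools 1 to 4 at DN3, against 374, 376, 292 and 278 at DN2. No array overlapped, and the log2 change was 0.64 (standard error 0.082, adjusted p = 0.0145). Ccne1, which encodes cyclin E1, fell by a log2 change of -0.86 (adjusted p = 0.0306).

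Of 38 kept genes of Myc and ribosome biogenesis, 9 were lower and none was higher (median log2 change -0.22). Odc1, the first enzyme of polyamine synthesis, had signals of 959.7, 1024, 1093 and 1178 at DN3, against 1375, 1792, 1544 and 2185 at DN2, a log2 change of -0.68 (standard error 0.082, adjusted p = 0.0122). Its other kept probe sets, at -0.18 (adjusted p = 0.587) and -0.57 (adjusted p = 0.0533), were not called. Srm, spermidine synthase, changed by -0.51 (adjusted p = 0.00943) and Nhp2, of small nucleolar ribonucleoproteins, by -0.51 (adjusted p = 0.0178). Of 19 kept glycolysis genes, 5 were lower and none was higher. Tpi1, triosephosphate isomerase, had signals of 887, 991, 836 and 1006 at DN3, against 1419, 1533, 1334 and 1726 at DN2, without overlap, a log2 change of -0.69 (standard error 0.049, adjusted p = 0.00557). Pgam1 changed by -0.45 (adjusted p = 0.0101), Ldha, lactate dehydrogenase A, by -0.44 (adjusted p = 0.0105), Aldoa by -0.40 (adjusted p = 0.0375), with 3 of its 5 kept probe sets lower, and Pfkp by -0.42 (adjusted p = 0.0395). For Pfkp the median over all probe sets, of which 1 was kept, was 0.53. Oxidative phosphorylation genes had 10 of 73 lower and proteasome genes 6 of 37 lower, with none higher in either list, against 9.41% lower among all kept genes. Of 44 kept cytosolic ribosomal protein genes 1 was higher (Rpl27a, 0.62 (adjusted p = 0.00750)) and 1 was lower (Rpl14, -0.31 (adjusted p = 0.0399)). Of 18 kept cholesterol genes, Dhcr7, the last step of cholesterol synthesis, was the single call, with a log2 change of 0.49 (adjusted p = 0.00970).

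Among targets of p53, the DNA damage response factor, some brakes on growth and death proteins were called higher and others were not called. Of 22 kept members, 10 were higher and none was lower, 19 were higher in each of the 4 pools (1840 of all 7820 kept genes were), and the median log2 change was 0.46 (0.25 after median centring). Zmat3, a zinc finger target of p53, had signals of 1081, 887, 893 and 1115 in pools 1 to 4 at DN3, against 516, 524, 544 and 386 at DN2. The stages did not overlap, pool 4 had the widest gap, and the log2 change was 1.02 (standard error 0.14, adjusted p = 0.0162). Bbc3 (Puma) and Pmaip1 (Noxa) are BH3-only death proteins that p53 induces. Bbc3 had signals of 174, 201, 158 and 139 at DN3, against 122, 95.2, 103 and 72.2 at DN2, a log2 change of 0.79 (standard error 0.11, adjusted p = 0.0188), and Pmaip1 had 280.4, 255, 268 and 419.9 at DN3, against 211, 162, 199 and 276 at DN2, a log2 change of 0.52 (standard error 0.067, adjusted p = 0.0143). For Pmaip1 the DN2 value of pool 4 exceeded the DN3 values of pools 2 and 3. Ddit4, an inhibitor of mTORC1 that p53, hypoxia and glucocorticoids all induce, had signals of 229.9, 206, 212 and 272 at DN3, against 134, 109, 107 and 123 at DN2, a log2 change of 0.96 (standard error 0.080, adjusted p = 0.00737). Btg2, an antiproliferative gene, changed by 0.93 (standard error 0.086, adjusted p = 0.00836). The other calls, named after their values were seen, were Fas at 0.87, Phlda3 at 0.65, Ccng1 at 0.50, Mdm2 at 0.28 and Ei24 at 0.27. The 12 kept members without a call, named in the same way, included Cdkn1a (p21), Sesn1, Apaf1 and Gadd45b. No member passed the threshold when any 1 pool was left out.

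Of 10 kept Bcl2 family genes, 4 were higher and 1 was lower. Besides Bbc3 and Pmaip1, Bcl2l11 (Bim), a death protein of lymphocytes, had signals of 888, 769, 802 and 675 at DN3, against 467, 497, 584 and 362 at DN2, a log2 change of 0.73 (standard error 0.090, adjusted p = 0.0128). Mcl1, which protects cells, had signals of 1872, 1859.6, 2233 and 2262 at DN3, against 1394, 1449, 1574 and 1665 at DN2, a log2 change of 0.43 (standard error 0.049, adjusted p = 0.0114), and 5 of its 6 kept probe sets were higher. Bid, another death protein, fell by a log2 change of -0.71 (adjusted p = 0.0351). Both protective and death-promoting members were thus among those that rose.

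Genes of quiescence and FoxO activity had 7 of 21 kept members higher and none lower (median log2 change 0.40, and 0.19 after median centring). Pik3ip1, an inhibitor of PI3 kinase, had signals of 1698, 1516, 1579.7 and 1339 in pools 1 to 4 at DN3, against 1082, 1083, 1116 and 778 at DN2. It changed by 0.61 (standard error 0.065, adjusted p = 0.0103), without overlap. Txnip, which restrains glucose uptake, had signals of 1279, 1207, 1245 and 1486 at DN3, against 862, 912, 873 and 879 at DN2, a log2 change of 0.56 (standard error 0.067, adjusted p = 0.0121), and Tob2, an antiproliferative relative of Btg2, changed by 0.41 (standard error 0.056, adjusted p = 0.0160). Cdkn1b and Btg2 (above) belong to this list too. None of 9 kept immediate early genes was called by its brightest probe set, and Jun, with a mean log2 change of 1.02 (adjusted p = 0.0831), differed widely between pools, with signals of 779, 160.5, 522 and 311 at DN3, against 576, 98.7, 295 and 71.9 at DN2. The other kept Jun probe set was higher, at 0.75 (adjusted p = 0.0420).

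**Figure D4:**
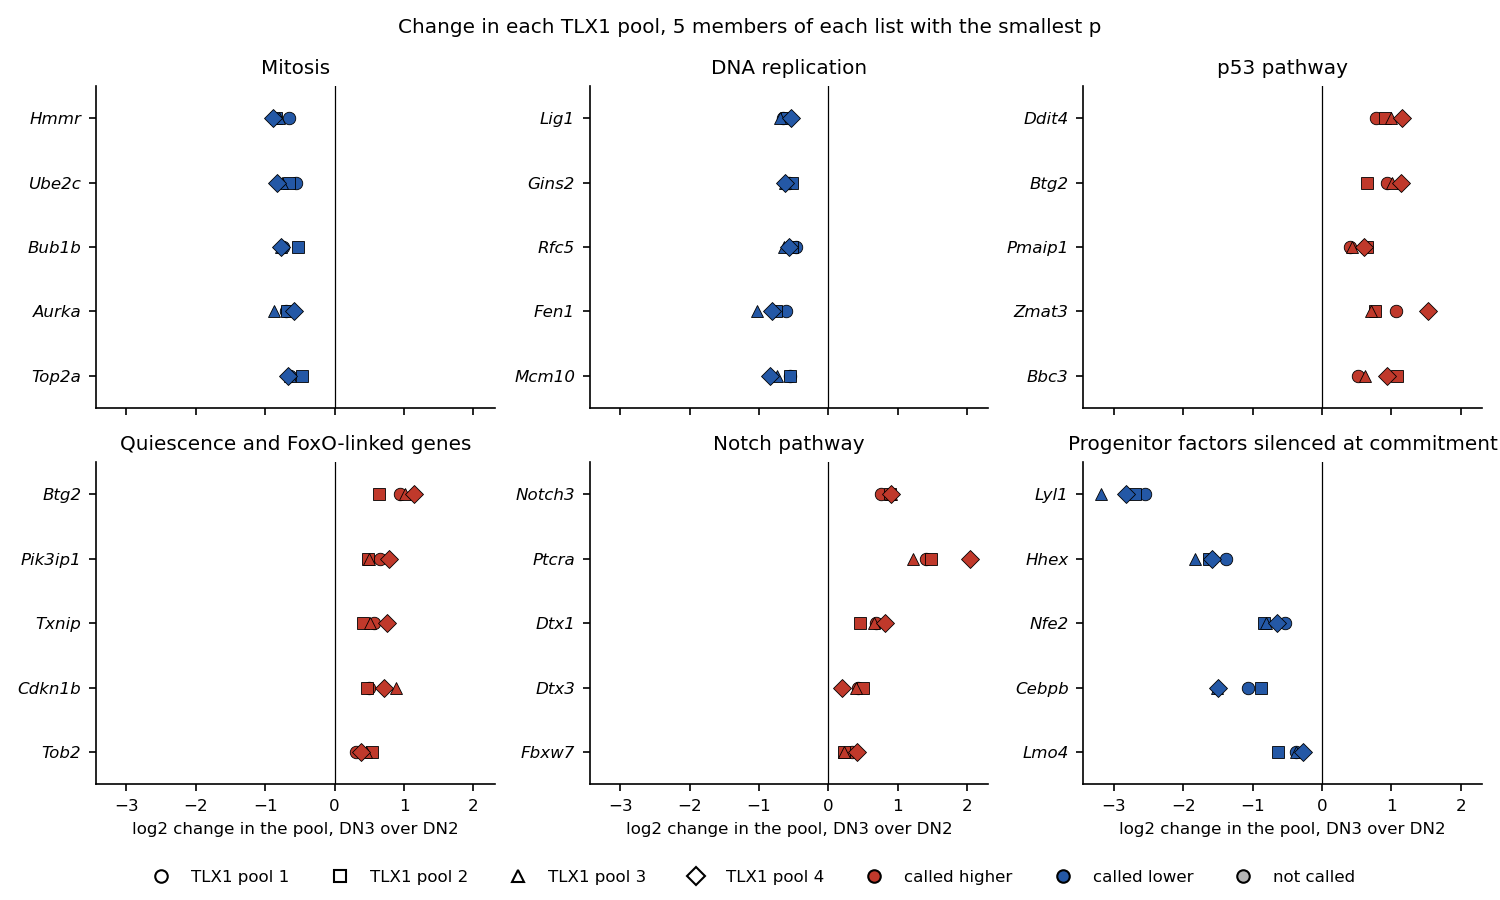
Log2 change, DN3 over DN2, in each of 4 TLX1 pools (symbols) for the 5 kept members with the smallest p in 6 gene lists. Every pool lies left of 0 for the mitosis, DNA replication and progenitor genes shown and right of 0 for the p53, quiescence and Notch genes shown. The choice by p in these same pools favours such agreement, and other members of the lists can differ.

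Among regulators of chromatin, 2 of 20 kept genes were higher and 3 were lower, against 6.91% and 9.41% of all kept genes, which for so few genes is close. Tet1, which oxidizes methylcytosine, had signals of 238, 219.9, 247 and 292 at DN3, against 173, 142, 164 and 188 at DN2, a log2 change of 0.58 (standard error 0.062, adjusted p = 0.0102), while its other kept probe set, at -0.12, was not called. Of the EZH pair, the catalytic subunits of polycomb complex 2, Ezh1 rose by 0.43 (adjusted p = 0.0147) and Ezh2 fell by a log2 change of -0.34 (adjusted p = 0.0244). Dnmt1, the maintenance methyltransferase, changed by -0.38 (adjusted p = 0.0168), and Cbx2, of polycomb complex 1, by -0.48 (adjusted p = 0.0116), with a median over all probe sets, of which 1 was kept, of 0.26. Of 31 kept interferon-stimulated genes, 1 was called (Ifi27, -0.25 (adjusted p = 0.0343)). Of 23 kept tumour suppressors and oncogenes of T cell leukemia, 3 were higher (Lef1, Cdkn1b and Fbxw7) and 2 were lower (Lyl1 and Ezh2), likewise close to those shares.

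Some genes known from macrophages and antigen-presenting cells were among the steepest falls, while other such genes were not called. C1qa, a complement component of macrophages, had signals of 0.447, 0.685, 0.613 and 0.720 in pools 1 to 4 at DN3, against 82.3, 118, 213 and 61.9 at DN2. All DN3 values lay under the floor of 1, so the size of its log2 change, -6.73 (standard error 0.42, adjusted p = 0.00405), is set by the floor, and with an offset of 32 it was -2.11. Apoe, an apolipoprotein of macrophages, had signals of 24.7, 20.9, 17.9 and 29.3 in pools 1 to 4 at DN3, against 121, 246, 343 and 167 at DN2. Its log2 change was -3.15 (standard error 0.33, adjusted p = 0.0101), and pool 3 was highest at DN2. The protease gene Adamdec1 changed by -2.95 (standard error 0.37, adjusted p = 0.0138), Clec4e, a C-type lectin of macrophages, by -2.46 (standard error 0.15, adjusted p = 0.00405), and Ctsg, the granule protease cathepsin G, by -2.32 (standard error 0.15, adjusted p = 0.00405). Bex6, of the Bex family, had signals of 2.85, 9.92, 8.16 and 13.4 at DN3, against 102, 108, 117 and 224 at DN2, a log2 change of -4.13 (standard error 0.30, adjusted p = 0.00557).

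MHC class II genes, which antigen-presenting cells express, fell by very unequal amounts. H2-Aa had signals of 14.4, 16.01, 22.5 and 49.5 in pools 1 to 4 at DN3, against 138, 197, 273 and 167 at DN2. Its DN2 arrays were all above its DN3 arrays, of which pool 4 was highest, and the log2 change was -3.06 (standard error 0.32, adjusted p = 0.0101). H2-Eb1 changed by -2.66 (standard error 0.31, adjusted p = 0.0118), H2-Ea by -2.41 (standard error 0.28, adjusted p = 0.0117) and the invariant chain Cd74 by -2.08 (standard error 0.39, adjusted p = 0.0378). H2-Ab1, which encodes the partner chain of H2-Aa, changed by -0.35 (standard error 0.073, adjusted p = 0.0489), and H2-DMa, a peptide-loading subunit named after its values were seen, by -0.10 (adjusted p = 0.572) with no call. From DN1 through DN2 to DN3, H2-Aa had mean signals of 1774 at DN1, 194 at DN2 and 25.6 at DN3, and Cd74 had 1456 at DN1, 179.7 at DN2 and 37.1 at DN3. Fcer1g and Tyrobp, adaptors of NK and myeloid receptors, had mean signals of 2854 at DN1, 114 at DN2 and 16.1 at DN3 and of 5021 at DN1, 142 at DN2 and 30.9 at DN3. Their log2 changes were -2.88 (standard error 0.18, adjusted p = 0.00405) and -2.28 (standard error 0.24, adjusted p = 0.0103). Cpa3, a mast cell protease that early T cell progenitors also express, had signals of 385, 289.8, 331 and 338 in pools 1 to 4 at DN3, against 1502, 1571, 1411 and 1631 at DN2. It was without overlap, at a log2 change of -2.19 (standard error 0.084, adjusted p = 0.00110), and its mean was highest at DN2 (614 at DN1).

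The full marker lists moved unevenly. The summed signal of the 23 measured myeloid markers was 1878 to 4114 at DN3 and 2889 to 3871 at DN2, with 2 of 6 kept members lower. It was lower at DN3 in pools 1 to 3 and higher in pool 4. Lyz1, a lysozyme of macrophages, had mean signals of 1441 at DN3 and 1488 at DN2, a log2 change of -0.063 (adjusted p = 0.818) with no call, and Lyz2, named after its values were seen, had a change of -0.024 (adjusted p = 0.931). For the 17 markers of dendritic cells and MHC class II it was 2362 to 3040 at DN3 and 2951 to 3435 at DN2, with 4 of 8 kept members lower. For the 18 NK and innate-like markers it was 3706 to 4761 at DN3 and 5050 to 5803 at DN2, with 2 of 4 lower, and the effector genes Nkg7 and Gzma of this list, at mean signals of 1722 at DN3 and 2229 at DN2 and of 2407 at DN3 and 2619.6 at DN2, were not called. The 13 mast cell and basophil markers summed to 4013 to 4768 at DN3 and 5945 to 6723 at DN2, with 2 of 2 lower. Nearly all of this sum came from these 2, Srgn, with mean signals of 4026 at DN3 and 4821 at DN2, and Cpa3 (above). No other member of the list was kept or called. The 12 erythroid and platelet markers were low, at 139.8 to 165.4 at DN3 and 197.1 to 250.4 at DN2. Neutrophil genes varied by pool, S100a8 with signals of 13.5, 4.33, 1.01 and 731 at DN3, against 95.3, 412, 2.904 and 470.2 at DN2, high in pool 4 at both stages. Below the signal limit, 5 further myeloid markers (Mpo, Fcgr3, Cd68, C1qb and C1qc) and 2 NK markers (Gzmb and Ccl5) were called lower. These and the defining markers that follow were named after their values were seen. The defining markers were low at both stages and not called, with Adgre1, Itgax and Ncr1 lower at DN3 without overlap. Itgam had signals of 6.57, 1.66, 2.98 and 2.72 at DN3, against 6.95, 4.07, 4.04 and 1.29 at DN2, Adgre1 (F4/80) of 7.47, 11.9, 4.09 and 13.5 at DN3, against 20.9, 13.95, 26.5 and 20.9 at DN2, Itgax (CD11c) of 8.65, 3.09, 7.42 and 11.97 at DN3, against 24.97, 15.5, 47.7 and 15.6 at DN2 and Ncr1 (NKp46) of 4.36, 2.86, 8.12 and 4.504 at DN3, against 11.8, 11.1, 9.61 and 12.2 at DN2. What share other cells had in the falls of these genes was not tested.

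The 11 markers of later T cells summed to 985.3 to 1640 at DN3 and 1075 to 1516 at DN2, with Cd5 lower among 3 kept members. Cd28, a costimulatory receptor below the signal limit, was higher, with mean signals of 75.6 at DN3 and 33.00 at DN2 and a log2 change of 1.19 (adjusted p = 0.0163). Of further markers, named like Cd28 after their values were seen, Cd4 had signals of 1.77, 3.81, 2.03 and 2.42 at DN3, against 1.700, 2.23, 2.52 and 2.97 at DN2, and Cd8b1 had 3.17, 175, 5.63 and 5.46 at DN3, against 4.92, 82.1, 6.82 and 6.26 at DN2, high in pool 2 at both stages. In the study's description of its cohorts, pool 2 had the largest share of cells outside DN1 to DN3 among TLX1 pools. Its part in these signals was not tested. The 18 markers of thymic stroma summed to 1158 to 1323 at DN3 and 796.2 to 1110.2 at DN2, with none of 2 kept members called. Most of this sum came from 1 gene, Epcam, with mean signals of 872 at DN3 and 632 at DN2. The other kept member, Pecam1, had 187 at DN3 and 192 at DN2. Of 17 B lineage markers (sums of 5702 to 8135 at DN3 and 5226 to 6785 at DN2), Spib and Igll1 rose among 6 kept, while the B cell factor Pax5, named in the same way, had signals of 11.2, 2.68, 1.63 and 9.66 at DN3, against 1.56, 10.9, 1.497 and 13.6 at DN2. Most of these sums came from Cd24a, also named in this way, which was not called. Igll1, the λ5 surrogate light chain, had signals of 169.6, 162, 123 and 122 at DN3, against 91.6, 94.7, 72.6 and 64.6 at DN2, a log2 change of 0.84 (standard error 0.076, adjusted p = 0.00836), and Vpreb1, the other surrogate chain gene, changed by 0.56 (adjusted p = 0.0868) without a call. Of 4 kept markers of γδ T cells, Cd163l1 and Maf stood out in 1 array. The others, Sox13 and Blk, had mean signals of 247 and 158 at DN3, against 220 and 170 at DN2. Their log2 changes were 0.17 (adjusted p = 0.427) and -0.15 (adjusted p = 0.508). Cd163l1 had signals of 191, 203, 1077 and 239.8 in pools 1 to 4 at DN3, against 141, 138, 91.7 and 175 at DN2, and the transcription factor Maf had 49.6, 58.1, 249 and 84.2 at DN3, against 55.1, 29.2, 60.5 and 78.4 at DN2. The list sum was 1910 in pool 3 at DN3, of which Cd163l1 gave 1077 and Maf 249, against 598.2 to 835.4 on the other 7 arrays. The same DN3 array was highest for Ccr9, a thymic homing receptor, with signals of 14.6, 71.4, 828 and 44.96 at DN3, against 8.38, 29.04, 46.96 and 12.4 at DN2, and for Ighm, with 59.5, 196, 505 and 102 at DN3, against 62.1, 67.7, 92.01 and 95.6 at DN2. None of these 4 genes was called, and the part of this array in other results was not tested.

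The control pools show how much of the change was also seen without the transgene. Over the 13461 kept probe sets the changes in TLX1 and control pools, which are different mice, correlated at r = 0.853 across probe sets (a description, since probe sets are not independent and the arrays share a platform and scale). Of the probe sets called higher in TLX1 pools, 1013 of 1032 (98.2%) were also higher in control pools, and of those called lower 1108 of 1111 (99.7%) were also lower, against 79.4% with the same sign among all kept. Control pools gave 131 higher and 98 lower calls of their own (1.7% of kept), of which 122 and 93 were called in TLX1 pools in the same direction. The 3'/5' index was 0.99 on the DN2 array of control pool 3, against 0.24 to 0.57 on the other control arrays of these stages. On the TLX1 arrays it was 0.10 to 0.37. In the study's description of its cohorts, control pool 3 also had the largest share of cells outside DN1 to DN3 of all pools. The part of this pool and of its DN2 array in the number of control calls was not tested. For the probe sets called in TLX1 pools, the median log2 change was 0.51 in TLX1 and 0.38 in control pools for those that were higher, and -0.43 in TLX1 and -0.32 in control pools for those that were lower. Since TLX1 calls chose these probe sets, a smaller change in control pools is no evidence of a difference. The difference itself, TLX1 minus control, was called for 0 of 13461 kept probe sets (0%, limma interaction, smallest adjusted p = 0.952), and 701 (5.21%) had an unadjusted p under 0.05. The median standard error of this difference was 0.13, against 0.075 for the change in TLX1 pools.

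Ptcra changed by 1.54 in TLX1 and 1.63 in control pools, Rag1 by 1.11 and 1.12, Lef1 by 1.91 and 1.91, Lyl1 by -2.81 and -2.45, Kit by -0.93 and -1.18 and H2-Aa by -3.06 and -2.70, TLX1 pools first in each pair. The median of the mitosis list was -0.59 in TLX1 and -0.48 in control pools, that of the p53 pathway 0.46 in TLX1 and 0.37 in control pools, and that of the quiescence genes 0.40 in TLX1 and 0.24 in control pools, and none of these genes had a called difference. Probe sets with the smallest unadjusted p of the difference were of Lamp2, Paics, Serf1 and Esco1, besides one with no gene name. These were chosen by probe set and not as the brightest of their gene. The probe set of Esco1, a cohesin acetyltransferase, had signals of 156, 94.9, 120.2 and 115 in pools 1 to 4 at DN3, against 86.8, 46.6, 44.1 and 29.98 at DN2 in TLX1 pools and of 66.6, 130.1, 43.2 and 51.02 at DN3, against 80.99, 84.6, 47.7 and 69.9 at DN2 in control pools. Its stages were apart in TLX1 pools, and the difference of the log2 changes was 1.38 (adjusted p = 0.952). A brighter Esco1 probe set changed by 0.35 in TLX1 and 0.32 in control pools.

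**Figure D5:**
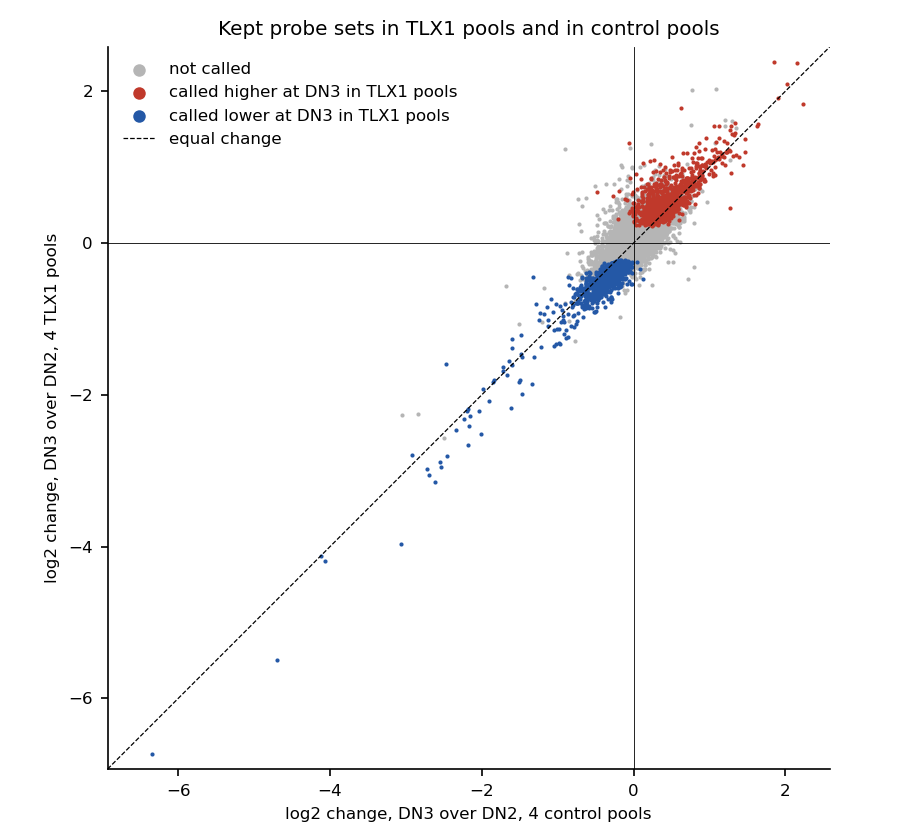
Log2 change, DN3 over DN2, of the 13461 kept probe sets in 4 TLX1 pools (vertical) against the same change in 4 control pools (horizontal), with a dashed line at equal change. Red and blue points, called higher and lower in TLX1 pools, lie along the line, and 1013 of 1032 and 1108 of 1111 have the same sign in both.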

How the data were processed

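MAS5 signals were made by the authors from 24 Affymetrix Mouse 430 2.0 arrays with Affymetrix Expression Console, and the deposited values are linear intensities with no detection calls used here. Signals under 1 were raised to 1 before log2 was taken. The DN3 over DN2 change was fitted in limma (version 3.58.1, R 4.3.3) over 45037 probe sets with the pool as a block and an intensity trend, and p-values were adjusted by Benjamini-Hochberg over all of them (threshold 0.05). Results are described for the 13461 with a mean signal of 100 or more at DN3 or at DN2. The pairing comes from the pool numbers in the labels, since the arrays of a number hold cells of the same mice, and the deviations of same-numbered arrays from the stage means correlated at 0.577 to 0.89. The difference between genotypes was an interaction over 16 arrays. Of the kept probe sets, 12169 match 1 gene in the platform annotation, 430 several and 862 none, and a gene was represented by its brightest probe set that matches a single gene. Other kept probe sets of some called genes, such as Cd247, Cd93, Rbl1, Ccne1 and Pik3ip1, changed in the same direction without a call. Named are the 12 greatest changes in each direction, the 5 members with the smallest p of each list, 10 marker and core genes and the 5 probe sets with the smallest p of the difference. Others carry a remark. The members and lists were chosen with earlier results of these data known. Promoters are from RefSeq (GRCm38.p6). The fit was tested on simulated data. Scaling, floor, filter, block, trend and each pool left out were the alternatives tried.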

Additional observations from a re-analysis of the deposited data

Results flagged for a closer look

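For 9 of 162 genes with 4 pool changes, 1 pool stood apart from the others by Dixon's criterion, which chance meets in about 1 of 20 groups. Pool 3 stood apart for Cd163l1, a scavenger receptor gene of γδ T cells, with a log2 change of 3.55 (0.434 to 0.552 in the other pools), and for the granzyme gene Gzma with -0.355 (-0.064 to -0.035). Pool 2 stood apart for the mitosis genes Bub1b, with -0.526 (-0.779 to -0.743), and Top2a, with -0.466 (-0.674 to -0.641), and for Sox13, a factor of γδ T cells, with -0.259 (0.283 to 0.345). Pool 1 stood apart for Notch3 with 0.758 (0.884 to 0.908), for the proteasome gene Psmd8 with -0.135 (-0.310 to -0.305) and for Rpl27a with 0.498 (0.647 to 0.668). Pool 4 stood apart for Mre11a with -0.467 (-0.272 to -0.233).

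Among the probe sets named, the only ones searched for this, the changes of 2 ran in opposite directions in all pools of TLX1 and of control mice. The Lamp2 probe set was itself named for its small p of the difference, so its flag is no separate result. For Sqle, squalene epoxidase, the difference of the log2 changes, TLX1 minus control, was -0.247, and for Lamp2, a lysosomal membrane protein, it was 0.516. The Lamp2 probe set is not the brightest of its gene, and the brightest one changed by 0.011 in TLX1 and -0.12 in control pools. Neither difference passed the threshold after adjustment.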

How the results depend on the processing

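Of 1032 higher and 1111 lower probe sets, the pool as a block carried many calls, with 109 higher and 176 lower without it. Centring each array on its median gave 440 and 4209, a floor of 16 gave 160 and 244, and a fit over the kept probe sets alone gave 2209 and 2236. Without the intensity trend there were 0 and 0. Without the trend but fitted over the kept probe sets alone there were 2070 and 1863, and with the 3'/5' difference as covariate 0 and 0 (both chosen after seeing the data). That difference was lower at DN3 in every pool, so the fit with it as covariate cannot separate it from stage. The methods' unpaired test gave 461 and 414 at its unadjusted p and fold, and 36 and 79 after Benjamini-Hochberg. With 1 pool left out the counts ranged 0 to 2 higher and 0 to 11 lower. The causes were not tested. Quantile normalization, an offset of 32, both other filters, no filter, array weights and the fit of 16 arrays kept both counts within 1.5 times. The difference between genotypes was called for 0 probe sets under every alternative run. The fall of the 3'/5' index rested on Gapdh, as Actb alone gave 0.00013. The median over all probe sets of the gene turned the sign for Tshz2 (-0.095), Atp5g1 (0.16), Cbx2 (0.26), Mre11a (0.033) and Pfkp (0.53). No other called gene among the 162 recomputed turned its sign. Signals near the floor have no dependable size, and 4 pools limit the precision.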
